A study of Mus musculus with 57 samples.

Results

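Solute carriers are membrane proteins that move small molecules and ions across the plasma membrane and the membranes of organelles, and their genes carry symbols made of Slc, a family number, a letter and a member number. Every gene of the table of expressed genes whose symbol has this form was taken, which gave 178 of 12087 genes. The values describe 57 individually captured cells from postnatal day 4 (P4) mouse kidneys, sampled as renal vesicle, the first epithelial stage of a forming nephron. All cells came from 1 pool of 2 kidneys of Tg(Crym-EGFP)GF82Gsat mice at Theiler stage TS27, on a mixed strain background and with the sex unknown in the labels of most cells. The transgene places the green fluorescent protein EGFP under Crym and is carried by every cell, no label states the gate of the cell sort, and no other genotype, treatment or age was profiled. Levels are RPKM, read numbers divided by gene length and by the mapped reads of the cell.

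Carriers of the inner mitochondrial membrane (the Slc25 family) exchange nucleotides, phosphate and metabolites and are needed by every respiring cell. The mature nephron is known for a different set, in which each segment carries its own transporters for glucose, amino acids, phosphate, organic ions and salt, while a renal vesicle does not yet reabsorb. Macrophages, which clear apoptotic cells and aged red cells, are known for carriers that move iron and amino acids out of the lysosome and the cell.

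Cells were placed in classes by marker genes alone, because the labels hold a single group. The 5 cells with C1qb, a complement gene of macrophages, at RPKM 1000 or more were called macrophage-like, and the other 52 are called nephron cells. In these 5 cells (numbered 1, 25, 35, 46 and 58 in the labels) C1qb lay between 1589 and 2362, against at most 129 in the nephron cells. Of the 18 genes listed as macrophage markers, 17 had values, and without C1qb the summed level of the other 16 was 9400 to 19384 in the macrophage-like cells, against 0 to 305 in the nephron cells. Pax8, the transcription factor that marks the nephron lineage, was at most 1.99 in the macrophage-like cells and had a median of 303 in the nephron cells, so the 5 cells went against the sampled structure. Among nephron cells, 34 had Wt1, a transcription factor of the proximal end of the vesicle and of podocytes, at RPKM 20 or more with both distal factors Sox9 and Pou3f3 below 20, and these are called Wt1-side. Another 12 cells had Sox9 or Pou3f3 at RPKM 20 or more with Wt1 below 20 and are called distal-side. The remaining nephron cells met both conditions (2 cells) or neither (4 cells). Few nephron cells lay near the threshold: Wt1 was between RPKM 10 and 40 in 6 of 52 cells, Sox9 in 4 and Pou3f3 in 3. Cells 13 and 53 had Pax8 below RPKM 5, and the highest levels of the stromal genes Dcn and Col3a1 (cell 13) and Pdgfra and Meis1 (cell 53). Cells of 1 pool are not replicates, so no p-value was computed, and the classes were compared by rules of size.

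Detection of a member means RPKM 1 or above in that cell. A median of 43 members was detected per cell, with a range of 20 to 75. Macrophage-like cells had a median of 45 members (40 to 65), Wt1-side cells 42 (27 to 67) and distal-side cells 43.5 (20 to 58). These ranges overlapped almost entirely. The macrophage-like cells had fewer detected genes of all kinds, a median of 3489 against 4345.5 in nephron cells, and members made up a median of 1.28% of their detected genes against 0.980% in nephron cells. The share of members among detected genes ran between 1.17% and 1.34% in the macrophage-like cells, and the highest nephron cell reached 1.30%. The estimated depth was 0.762 to 1.38 M reads in the macrophage-like cells, against 0.474 to 2.28 M in the nephron cells.

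Most solute carriers were found in few cells. A member was detected in a median of 9 cells, against 16 for all genes, and its mean level had a median of RPKM 5.29, against 8.86 for all genes. Only 22 members (12.4%) were detected in at least 29 cells, against 28% of all genes, and 54 (30.3%) in 5 cells or fewer, against 18.6% of all genes. The table lists only genes above RPKM 3 in at least 2 cells, so members below that level are not analysed here, and a member seen in few cells entered through those cells. At the median depth RPKM 1 corresponds to about 5.21 reads for a member of median length, and to about 1.68 reads in the shallowest cell, so a member not detected in a cell may still be expressed there.

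**Figure D1:**
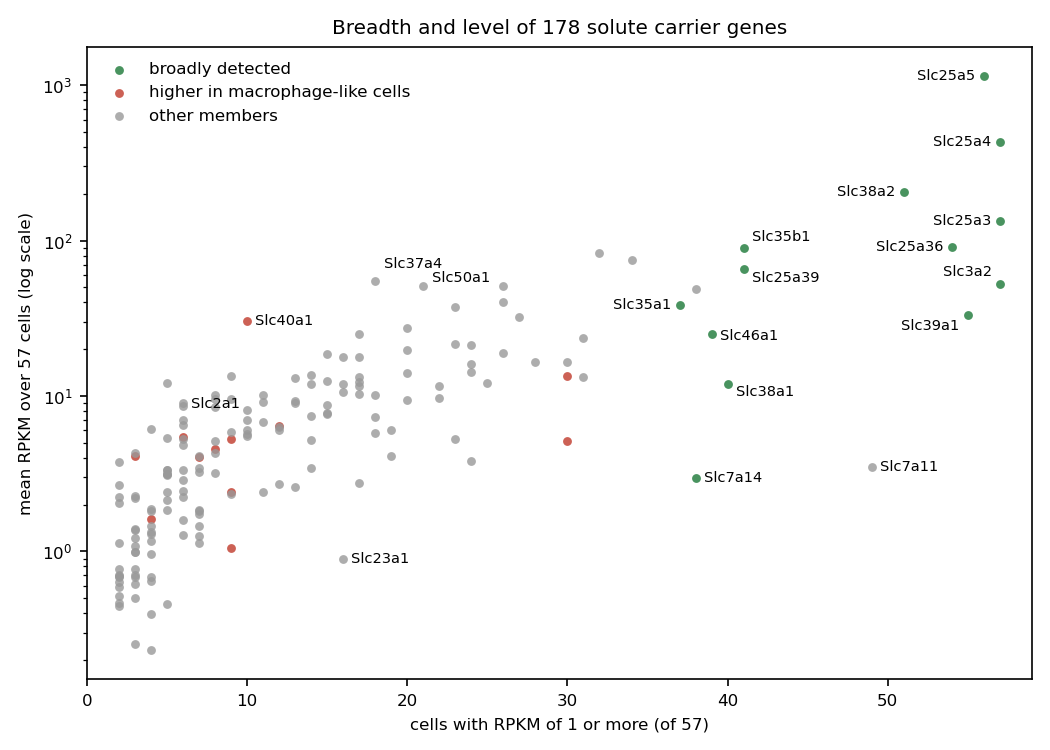
Each point is 1 of 178 solute carrier genes, placed by the number of cells (of 57) with RPKM of 1 or more and by its mean RPKM over 57 cells on a log scale. Green points are the 13 broadly detected members, red points the 12 members at least 4-fold higher in macrophage-like cells, grey points all others. Most members lie left of 29 cells, and Slc25a5 stands highest with a mean of 1151.

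A small general set was shared by all classes. A member was called broadly detected when at least 50% of the macrophage-like, the Wt1-side and the distal-side cells had it. This held for 13 members (7.3%), against 16.5% of all genes, so general genes were rarer in the family than in the table as a whole. Of these, 5 were mitochondrial carriers, 4 carried amino acids, 2 belonged to the nucleotide sugar family Slc35, 1 carried zinc and 1 carried folate.

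The ADP/ATP carriers, which exchange cytosolic ADP for mitochondrial ATP, were the most abundant members. Slc25a5 (chromosome X, 34335647 to 34338801, build mm9 throughout for genes) was detected in 56 cells, and its RPKM averaged 1151 ± 717 (SD over 57 cells), with a lowest value of 0.506, a median of 1032 and a highest value of 3686. Its paralogue Slc25a4 (chromosome 8, 47292698 to 47296363) was detected in all 57 cells at a mean of 431 ± 257, between 1.95 and 1175. The levels of the pair were also set side by side in the classes. Slc25a5 was at 3686, 1985, 2503, 1452 and 2002 in macrophage-like cells 1, 25, 35, 46 and 58, against a lowest, median and highest value of 0.506, 961 and 2960 in nephron cells. Slc25a4 was at 352, 135, 1.95, 169 and 2.63 in the same macrophage-like cells, against 20.6, 449 and 1175 in nephron cells. The means of Slc25a5 were 2326 ± 846 in macrophage-like and 1038 ± 600 in nephron cells, and those of Slc25a4 were 132 ± 144 in macrophage-like and 460 ± 247 in nephron cells. All 5 macrophage-like cells thus lay above the nephron median for Slc25a5 and below it for Slc25a4. The ranges overlapped, however, and neither gene passed the 4-fold rule given below. How often other genes had all 5 cells on 1 side of the nephron median was not tested. The coding sequences of the pair, 897 bases each, were identical at 695 positions (77.5%) with a longest identical run of 20 bases, and other genomic copies were not examined, so both levels are uncertain.

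The other mitochondrial carriers of the general set were less abundant. Slc25a3, which imports phosphate for ATP synthesis, was detected in all 57 cells at a mean of 134 ± 92.4 with a lowest value of 11.0. Slc25a36, a carrier of pyrimidine nucleotides, was detected in 54 cells at a mean of 91.0 ± 79.6. Slc25a39, which brings glutathione into mitochondria, was detected in 41 cells with a median of 14.0 and a highest value of 709 in macrophage-like cell 1. Slc25a3 had nearly the same mean in macrophage-like (131 ± 111) and nephron cells (134 ± 91.7).

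Among amino acid carriers, Slc3a2, the heavy chain that brings several Slc7 light chains to the cell surface, was the only member outside the mitochondrial family detected in all 57 cells, which 3 members (1.69%) reached, against 2.53% of all genes. Its mean was 52.6 ± 74.8, with a lowest value of 2.45, a median of 22.3 and a highest value of 373. Slc38a2, a sodium-coupled importer of small neutral amino acids, was detected in 51 cells at a mean of 205 ± 169 and a median of 183. The related Slc38a1 was detected in 40 cells at a mean of 12.0 ± 13.5. Slc7a14, a lysosomal carrier of cationic amino acids, was found in 38 cells at a mean of 2.96 ± 5.55, so it was widespread but low. Slc7a11, the cystine and glutamate exchanger that pairs with Slc3a2, was in 49 cells at a median of 3.08 and a highest value of 10.8, but in 2 of the 5 macrophage-like cells, which kept it out of the general set.

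The rest of the general set serves zinc, the Golgi and folate. The zinc importer Slc39a1 was detected in 55 cells at a mean of 33.1 ± 29.4. The macrophage-like cells had Slc39a1 at 165, 59.9, 59.5, 40.9 and 60.1, against a median of 21.6 and a highest value of 102 in nephron cells. Slc35b1, which brings ATP into the endoplasmic reticulum, was in 41 cells at a mean of 90.3 ± 132, and its highest value was 645 in macrophage-like cell 35. Slc35a1, the carrier that supplies the Golgi with CMP-sialic acid, was in 37 cells and the proton-coupled folate carrier Slc46a1 in 39. The medians of both were low, 2.79 for Slc35a1 and 1.59 for Slc46a1, while single cells reached 402 and 313.

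Members were sorted by family number into groups named after a main substrate, so a group can also hold carriers of other substrates. The groups differed in breadth. Nucleotide sugar carriers (Slc35, 19 members) had the highest median breadth of 14 cells, followed by the 33 mitochondrial carriers with 12. The 28 amino acid carriers had a median of 9.5 cells, the 23 metal ion carriers 10, the 21 carriers of inorganic ions and pH 9, the 8 carriers of choline and lipids 11, the 4 nucleoside carriers 9.5, the 4 others 11.5, the 9 carriers of peptides and vitamins 7, and the 16 carriers of monocarboxylates and other organic anions 6. The 13 hexose carriers were the narrowest group, with a median of 3 cells, and 7 of them were in 5 cells or fewer. No hexose carrier passed a rule of size between classes.

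**Figure D2:**
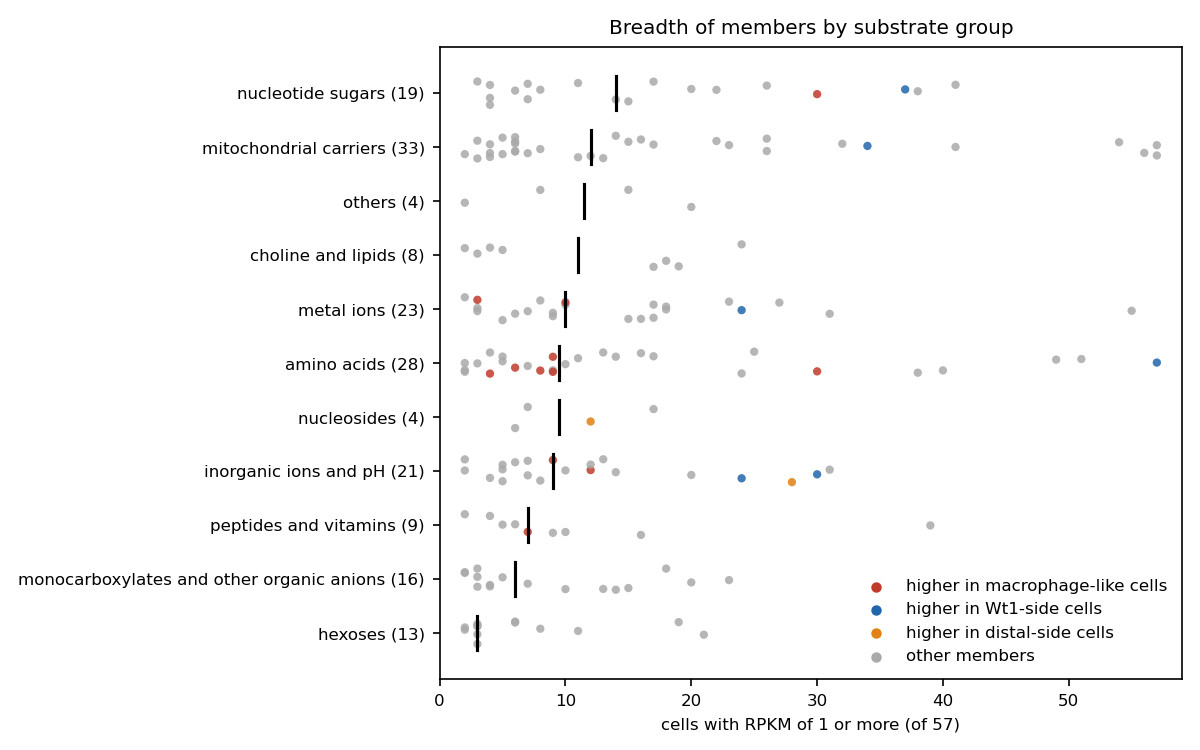
Each point is 1 member, placed by the number of cells (of 57) with RPKM of 1 or more, and rows are substrate groups with the number of members in brackets, ordered by the group median (black line). Colours mark members called higher in macrophage-like cells (red), Wt1-side cells (blue) or distal-side cells (orange). The medians run between 14 cells for nucleotide sugars and 3 cells for hexoses, and 6 of the 12 red points are amino acid carriers.

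Several members of the narrow groups were absent from most cells and very high in single ones. Slc50a1, a sugar carrier of the Golgi and plasma membrane, was in 21 cells with a highest value of 670 in cell 53. The inositol carrier Slc5a3 was in 19 cells with a highest value of 68.0. Slc2a1, the widespread facilitative glucose carrier, was detected in 6 cells, at 203, 145, 120, 26.6, 13.4 and 2.50. In the 51 other cells it was below RPKM 1, where it may still be expressed. Slc37a4, which moves glucose 6-phosphate into the endoplasmic reticulum, was in 18 cells with a highest value of 714 in cell 37. Slc44a1, a choline carrier, was in 24 cells and Slc37a3 in 19. Cell 37 also had the highest values of the zinc carrier Slc30a5 (540) and of the anion exchanger Slc26a7 (310.0). Its depth was 1.18 M reads and it had 3053 detected genes, below the median of 4345.5 for nephron cells. Other single high values were 386 for the nucleoside carrier Slc29a1 in cell 24, 205 for the vesicular monoamine carrier Slc18a2 in cell 17, and 186 for the lactate and pyruvate carrier Slc16a1 in cell 57. Among the remaining most widely detected members of their groups, the orphan Slc10a3 of the bile acid carrier family was in 20 cells, the heme carrier Slc48a1 in 20, the ascorbate carrier Slc23a1 in 16 and the zinc carrier Slc39a7 in 31. Slc4a7, a sodium bicarbonate cotransporter, and Slc35a4 were in 31 and 38 cells.

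The widest differences in the family lay between macrophage-like and nephron cells. A member was called higher in a class when its mean RPKM + 1 was at least 4-fold that of the other class and at least 50% of the cells of the higher class had it. By this rule 12 members (6.74%) were higher in macrophage-like cells, against 4.86% of all genes, and 7 (3.93%) were lower, against 8.68% of all genes. The share of higher members was somewhat above the background and that of lower members below it. A lower call needs detection in at least 50% of the nephron cells, and the part of the narrow detection of members in that share was not tested. Without cell 35 the count of higher members was 19, since detection in 2 of 4 cells then sufficed. The median log2 ratio was -0.82 for members and -1.12 for all genes. Of the 12 higher members, 6 are in the amino acid group, 2 in metal ions, 2 in inorganic ions, 1 in nucleotide sugars and 1 in peptides. None is a mitochondrial carrier. With 5 cells in the class a detected share of 5 of 5 has an exact Clopper-Pearson 95% interval of 47.8% to 100%, and intervals reflect only how many cells were drawn out of the pool.

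Both metal ion carriers among the 12 handle iron. Slc40a1 (ferroportin, chromosome 1, 45964915 to 45983364), the exporter that releases iron from the cell, was at 419.6, 248, 184, 316 and 421 in macrophage-like cells 1, 25, 35, 46 and 58. In the 52 nephron cells its median was 0.0727, and 5 of them had RPKM 1 or more (9.62%, interval 3.20% to 21.0%). The classes did not overlap, since the highest nephron value was 115, in cell 13, the cell with Pax8 at 0.744. The mean was 318 ± 104 in macrophage-like cells and 2.78 ± 16.1 in nephron cells, and the ratio of means + 1 was 84.4. Without cell 13 the log2 ratio was 7.67 in place of 6.40.

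Slc11a1 (chromosome 1, 74421777 to 74432625), which pumps iron and manganese out of the phagosome, was at 0, 18.5, 176, 0 and 39.5 in the same macrophage-like cells. No nephron cell had it at RPKM 1 or more, and the highest nephron value was 0.312; 0 of 52 cells allows a share of up to 5.77% (exact interval to 6.85%). The carrier was thus detected in 3 of 5 macrophage-like cells. It passed the filter of RPKM 3 in at least 2 cells through these cells alone, so its absence from nephron cells is partly set by the filter. The ratio of means + 1 was 47.3 (46.8 ± 74.1 in macrophage-like and 0.0112 ± 0.0569 in nephron cells), a size that depends on the added 1 because the nephron mean was close to 0. Without cell 35 the log2 ratio was 3.94 in place of 5.56.

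The promoters of Slc11a1 and of Slc7a8, the member described next, are shown because both genes were at or below RPKM 1.58 in every nephron cell. PU.1 is a transcription factor needed for macrophage development, and capitals mark the letters GAGGAA of its core motif or their reverse complement, searched on both strands. Each window holds the 250 bases before the RefSeq gene start, read along the gene, on build GRCm38.p6: chr1:74374953-74375202 on the plus strand for Slc11a1 and chr14:54781887-54782136 on the minus strand for Slc7a8.
Slc11a1: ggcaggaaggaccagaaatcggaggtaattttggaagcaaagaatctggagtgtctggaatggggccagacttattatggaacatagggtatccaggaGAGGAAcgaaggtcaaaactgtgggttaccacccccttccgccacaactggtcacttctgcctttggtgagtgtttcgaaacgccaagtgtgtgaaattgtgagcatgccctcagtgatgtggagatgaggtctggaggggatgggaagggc
Slc7a8: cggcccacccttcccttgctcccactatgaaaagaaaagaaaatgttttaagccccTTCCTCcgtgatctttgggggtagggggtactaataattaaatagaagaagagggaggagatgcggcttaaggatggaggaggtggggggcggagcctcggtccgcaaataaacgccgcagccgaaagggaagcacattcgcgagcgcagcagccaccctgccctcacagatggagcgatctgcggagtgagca
The match began 152 bases before the start in Slc11a1 and 194 bases before it in Slc7a8. The same letters occurred in 23.3% of all 32851 windows of this length and in 29 of 180 windows of the 132 members with a RefSeq window (16.1%). Of the 12 higher members 7 had windows, and the letters were in 6 of their 12 windows. Several of these windows belong to Slc7a7 and overlap, so they are not separate units. Other motifs were also searched: AP-1 (4.44% of member windows against 6.75% of all), E-box (13.3% against 6.02%) and the C/EBP-ATF element (2.78% against 3.45%). They were in 1, 1 and 2 of the 12 windows. A match describes letters and is not evidence of binding.

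The 6 amino acid carriers were led by light chains that pair with Slc3a2. Slc7a8 (LAT2, chromosome 14, 55341052 to 55400723), an exchanger of neutral amino acids, was at 2.92, 61.6, 30.8, 152 and 4.48 in the macrophage-like cells. In nephron cells it was detected in 3 of 52, at 1.58, 1.42 and 1.02, so the classes did not overlap. Slc7a8 passed the filter through macrophage-like cells alone, so this lack of overlap is partly set by the filter. The ratio of means + 1 was 45.6 (50.4 ± 61.6 in macrophage-like and 0.127 ± 0.345 in nephron cells), and without cell 46 the log2 ratio was 4.53 in place of 5.51. The 3 nephron cells, numbers 54, 50 and 57, also had C1qb at 8.91, 13.2 and 5.32, a gene detected in 11 of 52 nephron cells, and its part in these low values was not tested. Slc7a7 (y+LAT1), which exports cationic amino acids, was at 0.527, 75.5, 63.0, 5.66 and 124, against 2 of 52 nephron cells with it, at 35.1 and 4.97. Its ratio was 30.4, macrophage-like cells 1 and 46 lay within the nephron range, and without nephron cell 6, which had 35.1, the log2 ratio was 5.60 in place of 4.93.

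The heavy chain itself had a higher mean in macrophage-like cells but did not follow these light chains cell by cell. In cell 35 Slc3a2 was at 6.28, with Slc7a7 at 63.0 and Slc7a8 at 30.8. In cell 1 it was at 272, with Slc7a7 at 0.527 and Slc7a8 at 2.92. Slc3a2 was at 272, 56.6, 6.28, 108 and 373 in the macrophage-like cells, against a lowest, median and highest value of 2.45, 17.4 and 264 in nephron cells, and its ratio of 3.83 missed the 4-fold rule. Of its other partners, the importer of large neutral amino acids Slc7a5 was at most 0.420 in the macrophage-like cells and Slc7a11 at most 2.01.

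Of the other amino acid carriers, Slc38a6 was at 7.56, 16.4, 42.7, 3.91 and 45.2 in the macrophage-like cells, against 4 of 52 nephron cells with at most 8.30 (ratio 17.2). Slc43a2 (LAT4), a facilitative carrier of branched-chain amino acids, was at 53.6, 23.7, 0.158, 0.0761 and 7.85, and 1 nephron cell had it, at 6.59 (ratio 16.0). Slc43a2 passed the filter of RPKM 3 in at least 2 cells only with macrophage-like cells. Its rarity in nephron cells is thus partly set by the filter. Slc6a6, the taurine carrier, was at 13.8, 120.5, 15.0, 13.9 and 99.9 with a ratio of 5.02, but 25 of 52 nephron cells had it too, up to 129. Slc38a7, a glutamine carrier of the lysosome, was the weakest of the 12 at a ratio of 4.32, in 4 of 5 macrophage-like and 5 of 52 nephron cells. Slc38a6 was thus present in every macrophage-like cell, Slc43a2 in 3, and Slc6a6 was shared with the vesicle cells. Without cell 25 or 58 the call of Slc6a6 was lost (log2 ratios of 1.78 and 1.97), without cell 1 or 58 that of Slc38a7 (1.24 and 1.81, and 2.94 without nephron cell 29, in place of 2.11), and without cell 1 the log2 ratio of Slc43a2 was 2.98 in place of 4.00. The nearest member outside the rule was the copper importer Slc31a1 at 3.96.

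The remaining higher members belong to the groups of peptides, ions and nucleotide sugars. Slc15a3, a lysosomal carrier of histidine and small peptides, was at 0, 59.6, 0, 63.6 and 86.6 in the macrophage-like cells, against 4 of 52 nephron cells with at most 9.14 (ratio 30.5). Slc35e2 was at 2.57, 1.32, 0, 101 and 1.71, so that its ratio of 4.83 came from cell 46 and turned to a log2 ratio of -0.94 without that cell. The sodium and calcium exchanger Slc8a1 had a ratio of 4.54 and was in 3 of 5 macrophage-like and 6 of 52 nephron cells. Its call was lost without cell 1 or 58 (log2 ratios of 1.67 and 1.74). Levels thus varied widely among the 5 cells, and Slc40a1, Slc7a8, Slc38a6 and Slc6a6 were among those detected in all of them.

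**Figure D3:**
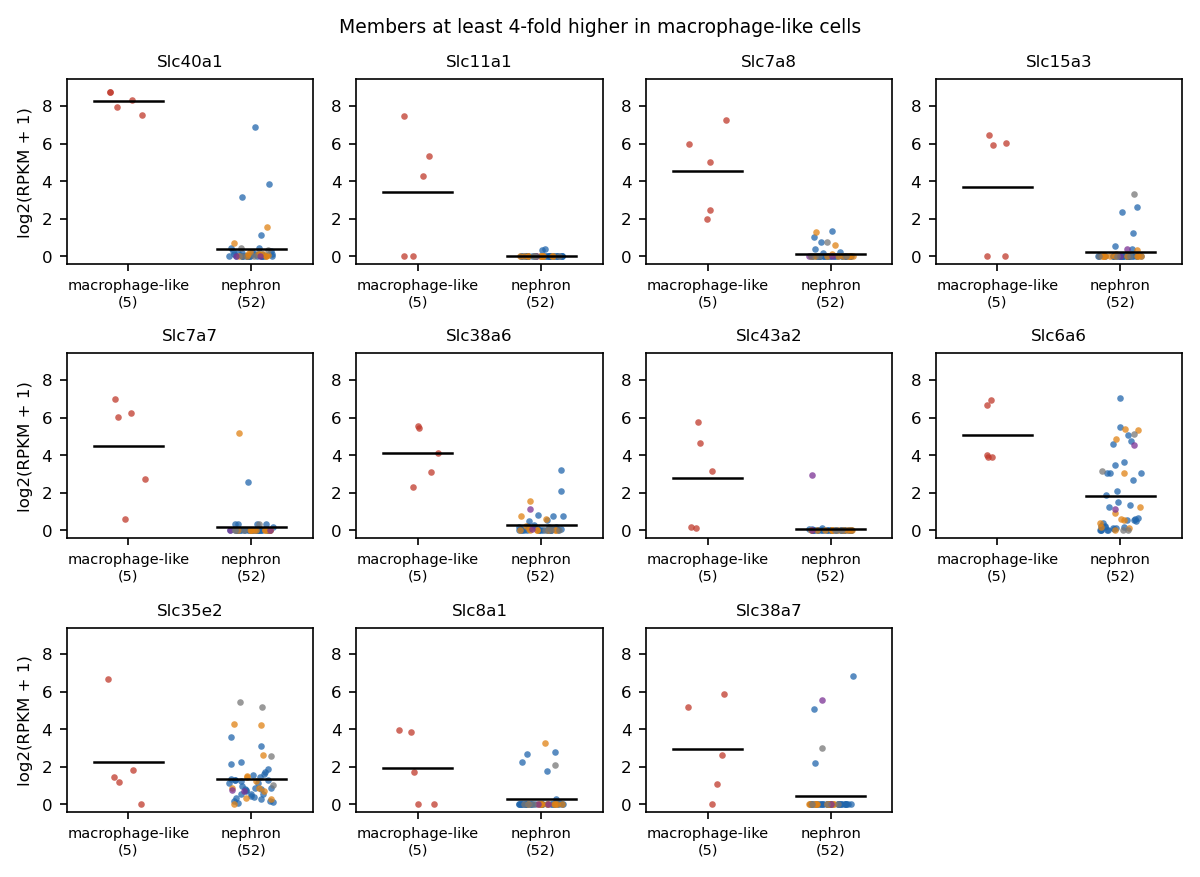
Levels as log2(RPKM + 1) of 11 members called higher in macrophage-like cells, with 5 macrophage-like cells on the left (red) and 52 nephron cells on the right of each panel (blue Wt1-side, orange distal-side, purple both, grey neither); lines are means of the plotted values. Slc40a1 and Slc7a8 show no overlap between the classes, and Slc35e2 rests on 1 cell at RPKM 101.

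The 7 members that were lower in macrophage-like cells were led by carriers of the secretory pathway and of zinc. Slc35b2, which brings the sulfate donor PAPS into the Golgi, was at 0.498, 0, 0.283, 0 and 0 in the macrophage-like cells and was detected in 26 of 52 nephron cells at a mean of 44.4 ± 83.0, a ratio of nephron over macrophage-like means + 1 of 39.2. The zinc importer Slc39a6 was at 1.01, 0, 0.192, 0 and 0, against 26 of 52 nephron cells and a mean of 35.2 ± 54.5 (ratio 29.1). Slc35a1 had 0.354 to 4.03 in the macrophage-like cells, against a mean of 42.1 ± 87.3 in nephron cells (ratio 13.6). All of these had nephron cells at 0 as well, so the classes overlapped.

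Slc46a1, the folate carrier, was present in all 5 macrophage-like cells but only at 1.50 to 3.29, against a median of 1.29 and a highest value of 313 in nephron cells (ratio 8.60). Its median was therefore not lower in the macrophage-like cells, and the ratio reflects high values in some nephron cells. The others were the zinc carrier Slc39a7 (6.35), the bicarbonate carrier Slc4a7 (6.16) and Slc35a4 (4.60), and the member just outside was Slc38a1 at 3.66. Leaving out cell 1, 35 or 46 ended the call of Slc35a4 (log2 ratio -1.91 each), and without cell 25 its log2 ratio was -3.66 and that of Slc4a7 -3.44, while without cell 58 that of Slc39a7 was -4.49. All 7 calls were lost when detection was set at RPKM 5. Slc35b2 and Slc39a6 were in exactly 50% of the nephron cells, so each lost its call when any of the 26 nephron cells that had it was left out, and both when the nephron class was limited to cells with Pax8 of RPKM 5 or more.

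Genes of iron handling differed along with Slc40a1 and Slc11a1. Of 15 listed genes, 12 had values, 7 were higher and 2 lower in macrophage-like cells by the same rule. Of all genes, 4.86% were higher and 8.68% lower. Higher were Trf (transferrin, ratio 181), Hfe (46.9), the biliverdin reductases Blvrb (30.7) and Blvra (23.6), the heme oxygenase Hmox1 (11.8) and the ferritin subunits Fth1 (9.31) and Ftl1 (9.09). Trf and Hfe were each detected in only 1 nephron cell and passed the filter of RPKM 3 in at least 2 cells through macrophage-like cells. Their low nephron means, and so the size of their ratios, are partly set by the filter. Fth1 averaged 4945 ± 2275 in macrophage-like and 530.1 ± 227 in nephron cells, and its genomic copies were not examined. Lower were the transferrin receptor Tfrc, which brings iron in (2.57 ± 5.26 in macrophage-like and 26.4 ± 47.2 in nephron cells), and the iron sensor Ireb2 (2.89 ± 3.69 in macrophage-like and 20.3 ± 32.3 in nephron cells).

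Other partner lists held fewer such genes, set beside the 4.86% of all genes that were higher and the 8.68% that were lower. Of 6 genes for zinc and copper, 5 had values, and the metallothionein Mt1 was higher in macrophage-like cells (847 ± 354 in macrophage-like and 39.6 ± 90.9 in nephron cells, ratio 20.9). Of 10 genes of primary pumps, 9 had values, and Atp6v0c, a subunit of the proton pump that acidifies lysosomes, was higher (ratio 5.76). Of 12 genes of the response to amino acid shortage, 8 had values, none was higher and the serine synthesis genes Phgdh (ratio of nephron over macrophage-like 114) and Psat1 (4.17) were lower. Of 10 ancillary proteins and regulators of carriers, 8 had values and none passed the rule in macrophage-like cells.

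Within the vesicle, fewer members separated the ends. The rule was the same with a 2-fold ratio. On the Wt1 side 6 members (3.37%) were higher, against 4.74% of all genes, and on the distal side 2 (1.12%), against 4.53% of all genes. The shares were below the background in both directions. The counts were 3 on the Wt1 side without cell 21, and on the distal side 4 without cell 45 or 57 and 1 without cell 56. The median log2 ratio of Wt1-side over distal-side means + 1 was 0.40 for members and 0.18 for all genes.

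The Wt1-side members belong to different groups. Slc35a1 (chromosome 4, 34610506 to 34634687) was detected in 24 of 34 Wt1-side cells and 8 of 12 distal-side cells, with a mean of 58.9 ± 104 on the Wt1 side and 10.4 ± 16.8 on the distal side (ratio 5.28). The lowest, median and highest values were 0, 11.7 and 402 on the Wt1 side, against 0, 2.25 and 58.2 on the distal side. It was detected about as often on both sides and differed by the cells with high levels.

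Slc20a1, a sodium-phosphate cotransporter, was in 17 of 34 Wt1-side cells and 4 of 12 distal-side cells, with means of 19.1 ± 31.5 on the Wt1 side and 3.05 ± 6.54 on the distal side (ratio 4.97). Slc12a2 (NKCC1), which brings sodium, potassium and chloride into the cell, was in 19 of 34 and 4 of 12 cells, with means of 20.3 ± 30.6 on the Wt1 side and 6.66 ± 17.6 on the distal side (ratio 2.78). The zinc importer Slc39a10 was in 18 of 34 Wt1-side and 2 of 12 distal-side cells, with 89.9 in distal-side cell 15 and at most 4.66 in the others (ratio 2.22). Its log2 ratio turned to -0.18 when the marker threshold was RPKM 50. Slc3a2 was in every cell of both classes, at a median of 29.0 on the Wt1 side and 10.7 on the distal side (ratio 2.03), just inside the 2-fold rule, with Slc16a1 just outside at 1.85. The ranges of all 6 members overlapped between the sides. Single cells mattered: without distal-side cell 20 the log2 ratio was 3.00 in place of 1.48 for Slc12a2, and without cell 15 it was 3.69 in place of 1.15 for Slc39a10. Without cell 50 it was 3.10 in place of 2.40 for Slc35a1, and without cell 8 it was 3.15 in place of 2.31 for Slc20a1. The call of Slc20a1 was lost when any of the 17 Wt1-side cells that had it was left out, that of Slc39a10 without cell 4, 21 or 51, and that of Slc3a2 when any of 15 cells was left out. None of 5 stromal genes passed the rule, because each was in fewer than 50% of the Wt1-side cells. Their ratios of Wt1 over distal side ran between 2.52 for Col1a1 and 24.7 for Meis1, which was in 13 of 34 and 1 of 12 cells. Their summed level had a median of 0.528 and a highest value of 970.2 in Wt1-side cells, against a median of 0.155 and a highest value of 2.10 in distal-side cells. Leaving out the cells with Pax8 below RPKM 5, an alternative chosen after the data were seen, gave the same 6 and 2 members.

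Of the members higher on the distal side, Slc29a3, a lysosomal nucleoside carrier, was in 4 of 34 Wt1-side cells and 6 of 12 distal-side cells. Its Wt1-side values reached 80.1, and the distal-side values reached 79.7 in cell 56 and 48.4 in cell 20 and were 0 in 5 of the 12 cells. The means were 4.30 ± 16.2 on the Wt1 side and 13.2 ± 25.0 on the distal side, a log2 ratio of Wt1 over distal side of -1.42. With exactly 50% of the distal-side cells positive, the call was lost when any of the 6 was left out (log2 ratio -0.61 without cell 56), and the log2 ratio was -2.24 without Wt1-side cell 4. Slc24a5 was in 15 of 34 Wt1-side cells and 9 of 12 distal-side cells, with means of 12.6 ± 23.3 on the Wt1 side and 33.8 ± 50.7 on the distal side (log2 ratio -1.36, and -0.79 without cell 32, where it was 159). It is known as a potassium-dependent sodium and calcium exchanger of pigment cells, and its gene overlaps Myef2, which was in 56 of 57 cells at a mean of 272 on the Wt1 side and 384 on the distal side. The libraries hold no strand, so reads of the overlap cannot be told apart. The same holds for the other overlapping genes among 22 members in all, with Slc7a7 (Oxa1l), Slc15a3 (Tmem132a), Slc35e2 (Gm16023), Slc39a7 (H2-Ke6), Slc35a4 (Apbb3), Slc2a12 (Tbpl1), Slc3a1 (Prepl) and Slc23a1 (Paip2) among them. Tmem132a was at 0 in all macrophage-like cells, Oxa1l averaged 20.2 in macrophage-like and 40.3 in nephron cells, and Paip2 was in 52 of 57 cells at a mean of 249. The ratio of distal over Wt1 side was 2.57 for Slc24a5, just inside the rule, and 1.94 for Slc35e2, just outside. Both distal-side calls were lost with the marker threshold at RPKM 50.

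Few genes of the partner lists separated the sides. On the distal side 2 of 9 pump genes, 1 of 8 ancillary genes, 1 of 5 zinc and copper genes and 1 of 12 iron genes were higher, against 4.53% of all genes. The sodium pump subunit Atp1b1 averaged 9.15 ± 23.2 on the Wt1 side and 25.8 ± 46.9 on the distal side, a ratio of distal over Wt1 side of 2.64. The subunit Atp1b3 (2.89), Mt1 (3.42) and the iron sensor Aco1 (2.99) passed the rule in the same direction. Tmem27 (collectrin), a partner of amino acid carriers in the brush border, was in 1 of 34 Wt1-side cells and 6 of 12 distal-side cells, at means of 2.44 ± 14.1 on the Wt1 side and 55.5 ± 101 on the distal side (ratio of distal over Wt1 side 16.4). On the Wt1 side, 1 of 8 amino acid shortage genes, Psat1 (2.96), and 1 of 12 iron genes, the ferritin receptor Ncoa4 (4.00), were higher. The share of all genes was 4.74%. The scaffold Slc9a3r1, which has a similar symbol but is no carrier, was in 14 of 34 Wt1-side cells and in 0 of 12 distal-side cells, where it was listed at 0, and missed the rule because fewer than 50% of the Wt1-side cells had it.

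**Figure D4:**
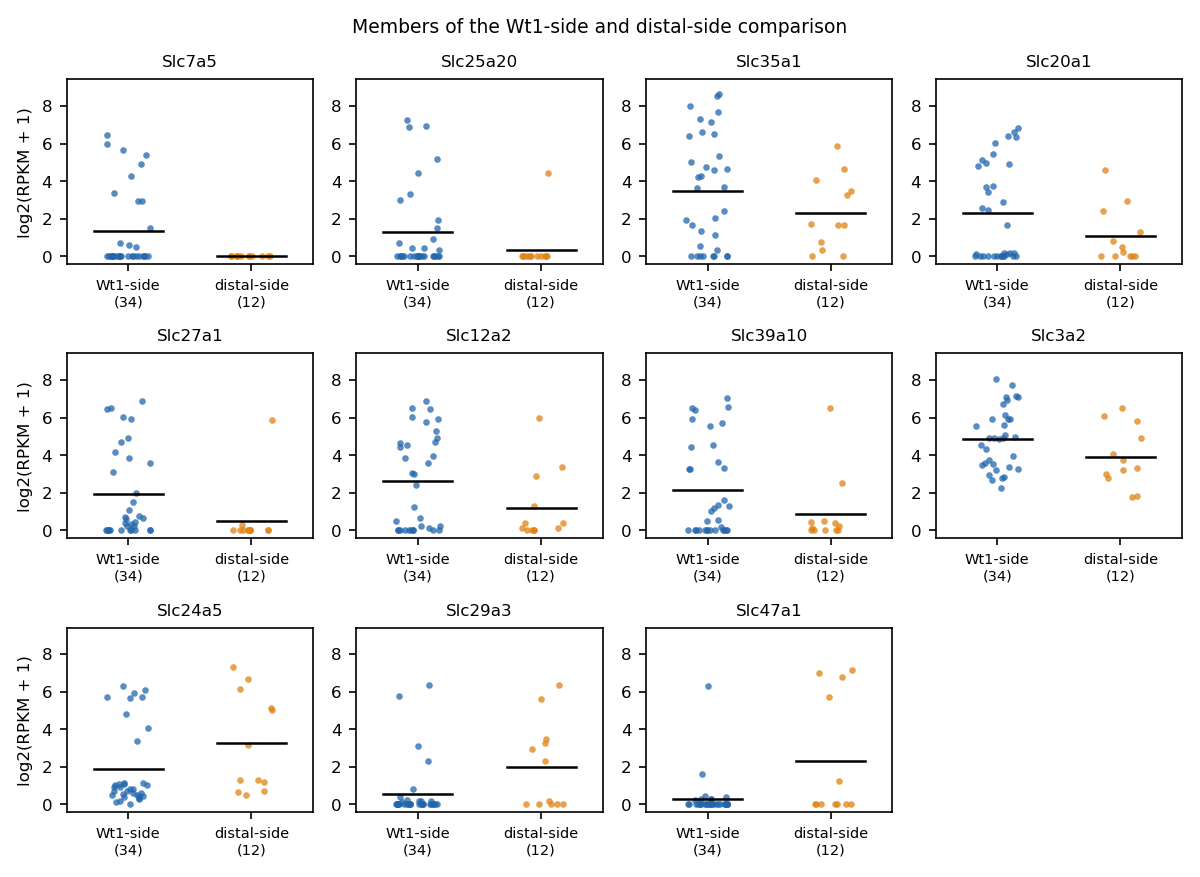
Levels as log2(RPKM + 1) of 11 members in 34 Wt1-side cells (left, blue) and 12 distal-side cells (right, orange) of each panel, with lines at the means of the plotted values. Slc7a5 is listed at 0 in all 12 distal-side cells, Slc47a1 reaches RPKM 138 on the distal side, and the panel of Slc7a5 alone shows 1 class entirely at 0.

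The authors also deposited a table that sets proximal against distal cells for 787 genes by a signed fold, where a plus sign means higher in proximal cells. It held 11 members (6.18%), against 6.52% of all genes, 5 of them on the proximal and 6 on the distal side. Its 28 cells include 17 Wt1-side and 10 distal-side cells and no macrophage-like cell, so it uses the same cells and is not independent of the comparison above. On the proximal side the authors' deposited table has, among others, Slc27a1 (7.07), Slc35a1 (6.99), Slc25a20 (6.18) and Slc7a5 (5.62). On the distal side the authors' deposited table has Slc9a9 (-6.22), Slc47a1 (-4.54), Slc25a10 (-4.53), Slc24a5 (-4.20), Slc2a12 (-2.73) and Slc2a2 (-2.41). How that fold was calculated is not stated in the labels or headers. All 11 had the same direction as the ratio of Wt1-side over distal-side means, and 3 of them, with Slc35a1 and Slc24a5 among them, passed the rule of size.

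The other 8 missed the rule of size. Slc7a5 (LAT1, chromosome 8, 124405046 to 124431586), the light chain that imports large neutral amino acids with Slc3a2, was in 10 of 34 Wt1-side cells (29.4%, interval 15.1% to 47.5%), at 1.88 to 86.7. In all 12 distal-side cells it was listed at 0, which allows a share of up to 25.0% (exact interval to 26.5%). All 10 cells that had Slc7a5 were Wt1-side cells. Slc7a5 thus passed the filter of the table through Wt1-side cells alone, so its absence from distal-side cells is partly set by the filter. Wt1-side is also the largest class, and how often other genes were seen in it alone was not tested. Slc25a20, which carries acylcarnitines into mitochondria for fat oxidation, was in 9 of 34 Wt1-side and 1 of 12 distal-side cells, with means of 13.8 ± 37.4 on the Wt1 side and 1.71 ± 5.94 on the distal side. Slc27a1, a fatty acid carrier, was in 14 of 34 and 1 of 12 cells, with means of 15.5 ± 30.5 on the Wt1 side and 4.74 ± 16.3 on the distal side. Both fat carriers were thus at or below RPKM 0.21 in 11 of 12 distal-side cells.

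Slc47a1 (MATE1, chromosome 11, 61156902 to 61191577), which exports organic cations at the brush border, was in 2 of 34 Wt1-side cells, at 76.1 and 2.04, and in 5 of 12 distal-side cells, at 138, 127, 107, 51.9 and 1.35. The eighth cell with it, number 41, belonged to neither side because it met both conditions. Slc9a9, a proton exchanger of endosomes, was in 8 of 34 Wt1-side cells at up to 155, and in 5 of 12 distal-side cells, at 60.1 to 122, so the values overlapped. Slc25a10, a mitochondrial dicarboxylate carrier, was in 7 of 34 Wt1-side and 4 of 12 distal-side cells. The glucose carriers Slc2a2 and Slc2a12 were in 3 cells each. Slc2a2 was listed at 0 in all Wt1-side cells, and was at 15.0 and 13.5 in distal-side cells and at 6.27 in a cell that met neither condition.

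Across the 52 nephron cells, no member tracked a marker closely. For the 80 members detected in at least 10 nephron cells, Spearman's rho with Wt1 ran between -0.32 and 0.42. The highest were Slc25a20 (0.42), Slc7a5 (0.37) and Slc3a2 (0.34), and the lowest Slc35c2 (-0.32), Slc25a10 (-0.27) and Slc25a14 (-0.23). These points share 1 pool and differ in depth, and with the number of detected genes taken out of the ranks the same 6 values were 0.42, 0.38, 0.39, -0.33, -0.26 and -0.22. The pair Slc3a2 and Slc7a5, which form 1 transporter, were both among the 3 highest. Slc35c2, a carrier linked to fucose in the Golgi, was in 6 of 34 Wt1-side cells at a mean of 7.50 and in 5 of 12 distal-side cells at a mean of 56.3.

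Transporters and partners known from mature segments ranged from rare to widespread. Of 30 listed genes, 10 had values, found in 2 to 30 cells, and the others are not analysed here. The sodium-glucose carrier Slc5a2 of the proximal tubule was in 2 cells, at 24.0 in cell 53 and 5.46 in another. Slc3a1, the heavy chain for cystine reabsorption, was in 2 cells, at 26.8 in cell 53 and 12.8 in cell 50. Cell 53 had Pax8 at 0.437 and is the cell with stromal genes named above. The organic cation carrier Slc22a18 was in 2 cells, at 167 in macrophage-like cell 46 and 48.1 in cell 38. Slc2a2 and Slc47a1 were described above, and Slc7a7 and Slc7a8, the basolateral exchangers of the proximal tubule, were found mainly in macrophage-like cells. The most widely detected genes of this list, Slc12a2 in 30 cells and Slc16a1 in 23, are also widespread outside the kidney.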

How the data were processed

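The deposited table of the authors holds RPKM of 12087 genes in 57 cells, with rows only for genes above RPKM 3 in at least 2 cells. A smaller deposited table of the authors holds RPKM and a signed fold, treated as a score, for 787 genes in 28 cells. Per the labels' protocols, kidneys were digested with trypsin and sorted, a Fluidigm C1 instrument isolated the cells, and libraries were made with SMARTer and Nextera XT chemistry, which keeps no strand and no molecular identifiers. TopHat 1.4.1, DESeq and build mm9 are listed, with no role stated, in the submitters' processing notes. Symbols repeated in the table affected 46 rows, and no column of another series was present.

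Cells were compared with Python 3.11.15, numpy 2.4.6, pandas 2.3.3 and scipy 1.17.1, and the step was tested on simulated data. Ratios used class means of RPKM + 1, and a higher class needed detection in at least 50% of its cells. Depth was estimated from the RPKM of single reads over 10815 genes with exon lengths. Whole reads came out within 0.1 read for 55.2% of the low member values, so no count test was run. The members and gene lists were chosen with earlier results of these data known. The text names broadly detected members, those past a rule of size (up to 10 a direction), those in the authors' class table, the widest and highest of each substrate group, the extremes of rho to Wt1, mature segment genes, and list genes past a rule; 2 members that met it are not reported here, and members named outside it are the nearest to a threshold or are said to be chosen afterwards. Promoter windows and coding sequences came from RefSeq (GRCm38.p6) and GENCODE, and protein sequences were not used here. Alternatives changed the detection level, the fold, the added constant, the means, a filter on low values, scaling to equal totals, the class definitions and single cells.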

Additional observations from a re-analysis of the deposited data

Results flagged for a closer look

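Among the 12 members higher in macrophage-like cells, 2 had a cell far from the other 4, by Dixon's critical value of 0.71 for 5 values. Chance exceeds it in about 1 of 20 groups of normally distributed, independent values. RPKM of single cells are skewed and hold zeros, so that rate does not apply here and the value serves only as a flag. Slc11a1 was at RPKM 176 in cell 35, against 39.5 in the next cell and 0 in the lowest, and the gap took up 0.776 of the range. Slc35e2 was at RPKM 101 in cell 46, against 2.57 in the next cell, with a gap of 0.974 of the range. The part of depth or amplification in these values was not tested.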

How the results depend on the processing

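No paired analysis was possible because the cells form 1 group from 1 pool. With detection above RPKM 0, a median of 64 members was detected per cell and 32 were broadly detected. With detection at RPKM 5, the median was 31 per cell, 0 members were lower in macrophage-like cells and 1 was higher on the distal side. Requiring 75% of each class left 6 broadly detected members. In the macrophage-like comparison a 2-fold rule gave 20 higher and 13 lower members, an 8-fold rule 4 lower, an added constant of 5 gave 4 lower, means of log2(RPKM + 1) gave 4 lower, and a filter at mean RPKM 5 left 6 higher. In the vesicle comparison a 4-fold rule gave 3 members on the Wt1 side and 0 on the distal side, and the distal side had 1 with an added constant of 5 and 4 with log means, with markers at RPKM 50 (none shared with the 2 reported) or with Emx2 and Irx3 added (1 shared). Stricter or looser thresholds change such counts by construction; for the log means and class definitions the cause was not tested. Leaving out 1 cell at a time gave 12 to 19 higher members (15 or more without a macrophage-like cell, 19 without cell 35, since 2 of 4 cells then met the 50% rule), 5 to 8 lower, 3 to 8 on the Wt1 side (3 without cell 21) and 1 to 4 on the distal side (1 without cell 56, 4 without cell 45 or 57). Scaling to equal totals gave the same members and moved the median log2 ratio of all genes by -0.024 between macrophage-like and nephron cells. The log2 ratio turned for Slc35e2 without cell 46 (-0.94, and up to 2.58 without another cell) and for Slc39a10 with markers at RPKM 50 (-0.18). Leaving out nephron cells in the macrophage-like comparison was chosen after the data were seen. Of 1704 values of the 27 calls, 1549 kept direction and call, 153 lost the call, and 10 calls held under all alternatives run. Depth limits detection of members below about RPKM 1, and 1 pool gives no error between animals.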

Other observations

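Slc26a7 and the peptide carrier Slc15a2 were both rare and high in some of the same cells, a pair chosen after the values were seen. Slc26a7 was detected in 8 nephron cells and Slc15a2 in 5, and neither in a macrophage-like or distal-side cell. Both passed the filter of RPKM 3 in at least 2 cells without those classes, so this absence is partly set by the filter. How often other rare genes were absent from both classes was not tested. Slc15a2 was at 373, 187, 67.0, 60.0 and 1.24 in cells 26, 29, 37, 17 and 16. The first 3 of these cells had Slc26a7 at 31.1, 91.2 and 310.0.

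Cell 24 held the highest values of Slc29a1 (386), Slc2a1 (203), Slc46a1 (313), Slc20a2 (102) and Slc7a5 (86.7). These belong to the groups of nucleosides, hexoses, vitamins, inorganic ions and amino acids. This was seen only after the values were sorted by cell. Every member has its highest value in some cell, and whether cell 24 held more of them than other cells was not tested. Cell 24 was a Wt1-side cell with an estimated depth of 1.25 M reads, within the range of 0.474 to 2.28 M reads of its class.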
